A study of Mus musculus with 12 samples.

Results

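Untreated cultures of 2 mouse melanoma lines, B16F0 and B16F10, were compared with untreated Melan-A cells, a mouse melanocyte line that forms no tumors. The comparison used the 6 untreated libraries of the 12 in the series and every gene, and the genes of interest were those that differed from Melan-A in the same direction in both B16 lines. Of 17467 genes with enough reads to test, 9864 met this rule. Each of the 3 lines had 2 libraries of RNA from cell cultures with no treatment, and the other 6 libraries came from the same lines given SX-682, an inhibitor of the chemokine receptors CXCR1 and CXCR2. The labels give no growth medium for any line. Each line is a single established line, so that what is particular to a line, to its culture and to tumor cells cannot be told apart, and the labels do not say whether the 2 libraries of a line came from separate cultures. The p-values therefore measure the spread between these libraries.

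Melanocytes are pigment cells that arise from the neural crest, as Schwann cells do. They make melanin inside melanosomes from tyrosine, with the enzymes tyrosinase, TYRP1 and DCT working on a fibrillar scaffold of PMEL, and the transcription factor MITF, switched on by SOX10 and PAX3, drives most of these genes by binding short E-box sequences in their promoters. Melanoma cells may keep this program or lose it for a less differentiated state, and many lose the cell cycle inhibitors of the CDKN2A locus.

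Between 64546934 and 85322092 reads were counted per library. Values are given as counts or as CPM, the counts of a gene per 1000000 reads after TMM scaling. The replicates of a line differed by more than counting noise, with a chi-square per gene from 2.87 to 5.25, and each of the 6 libraries was closest to the other library of its own line. Fold changes are log2 B16 over Melan-A from edgeR's quasi-likelihood test, and genes were called at a Benjamini-Hochberg adjusted p under 0.05. Standard errors (SE) are on the log2 scale and approximate. They can fall below counting error where the fold is large, so they are given for smaller fold changes only. Where a line had 0 counts, the fold was computed against 3 counts over its 2 libraries and is a lower bound that covers counting error only. Both comparisons share the 2 Melan-A libraries and are not independent of each other, and with 2 libraries against 2 an exact permutation test cannot go below p = 0.333, so that the test rests on the spread shared across genes.

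In both B16 lines 4395 genes were higher than in Melan-A (25.2% of those tested) and 5469 were lower (31.3%). A further 1626 genes were called in both lines in opposite directions. With a log2 fold change of at least 1 in both lines, 1386 genes were higher (7.93%) and 2868 were lower (16.4%), so that the larger differences were more often on the lower side. The median log2 fold change of all genes tested was -0.05 in B16F0 and -0.08 in B16F10. The 3 lines thus differed throughout, and the share of each gene list is read against these percentages. In bulk RNA, fewer cells of a type and less RNA per cell cannot be told apart.

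The same fit was made on the 6 SX-682 libraries, which the choice of genes did not use. There 4342 of 17257 genes tested were higher in both B16 lines (25.2%) and 5360 were lower (31.1%). Of the 1386 genes at least 2-fold higher without treatment, 1343 could be tested, 1171 were called higher (87.2%) and 0 were called lower. Of the 2868 at least 2-fold lower, 2630 could be tested, 2399 were called lower (91.2%) and 0 were called higher. The B16 lines also differed from each other, at 11363 of 17467 genes (65.1%), and of the genes at least 2-fold higher or lower in both, 939 and 1189 differed in level between B16F0 and B16F10.

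The list of melanin synthesis and melanosome matrix genes differed most evenly. All 14 of its 14 members were higher in both B16 lines, 13 of them at least 2-fold, with a median log2 fold change of 6.58 against -0.07 for all genes tested. With SX-682 all 14 were higher as well. Since MITF is known to drive many of these genes, the sequences just before their start sites were read from RefSeq for GRCm38.p6, 250 bases upstream of the first listed transcript and written 5′ to 3′ on the gene's own strand. Capitals mark TCATGTG or TCACGTG, the E-box with a flanking T that MITF binds, or the reverse complement of either (CACATGA or CACGTGA). The promoters of 3 enzymes and of an ion exchanger are shown as examples that hold a match, and those without one are named below.
Tyr, chr7:87493513-87493762, minus strand: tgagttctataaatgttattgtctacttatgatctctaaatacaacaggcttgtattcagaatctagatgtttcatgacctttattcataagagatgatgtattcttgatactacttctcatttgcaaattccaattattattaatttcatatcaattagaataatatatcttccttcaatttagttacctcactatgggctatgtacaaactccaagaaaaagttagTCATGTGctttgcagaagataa
Tyrp1, chr4:80833963-80834212, plus strand: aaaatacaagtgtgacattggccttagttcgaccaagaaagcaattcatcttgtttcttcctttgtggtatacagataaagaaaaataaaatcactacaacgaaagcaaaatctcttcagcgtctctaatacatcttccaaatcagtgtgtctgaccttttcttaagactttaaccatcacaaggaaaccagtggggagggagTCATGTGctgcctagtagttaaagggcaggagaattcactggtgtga
Dct, chr14:118052247-118052496, minus strand: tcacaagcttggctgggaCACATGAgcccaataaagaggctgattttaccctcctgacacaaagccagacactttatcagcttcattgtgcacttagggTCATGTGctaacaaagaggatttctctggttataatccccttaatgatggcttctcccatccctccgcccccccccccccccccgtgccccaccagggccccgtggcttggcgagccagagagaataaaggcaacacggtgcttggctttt
Slc24a5, chr2:125067877-125068126, plus strand: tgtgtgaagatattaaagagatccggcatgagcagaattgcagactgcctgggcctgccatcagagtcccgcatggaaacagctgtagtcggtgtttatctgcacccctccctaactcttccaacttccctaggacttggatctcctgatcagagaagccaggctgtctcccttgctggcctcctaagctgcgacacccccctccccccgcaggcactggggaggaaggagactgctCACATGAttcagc
The match in Tyr begins 22 bases before the start, that in Tyrp1 47 bases and that in Slc24a5 13 bases, and Dct holds 2 matches. Of the 14 genes of the list 9 had a promoter in the table, and 6 of these 9 (66.7%) held a match, the other 2 being Trpm1 and Tspan10. Of the promoters of all genes tested, 11872 were in the table and 779 (6.56%) held one. Of the genes at least 2-fold higher in both B16 lines, 60 of 921 promoters (6.51%) held one. Of those at least 2-fold lower, 104 of 1850 (5.62%) did. Among the higher genes as a whole the share was thus near that of all genes tested. Oca2, Gpnmb and Cd63 held none in this window. A match of letters describes the promoter and is no measure of binding.

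Tyr, which encodes tyrosinase, the enzyme that starts melanin synthesis, had 0.892 and 0.763 CPM in Melan-A, 514 and 511 in B16F0 and 70.3 and 65.5 in B16F10. This is 77 and 69 counts in Melan-A against 4204 or more in every B16 library. The log2 fold change was 9.27 (SE 0.055) in B16F0 and 6.36 (SE 0.065) in B16F10 (adjusted p = 3.09e-40 and 1.78e-34). Tyrp1 and Dct, the other two enzymes of eumelanin synthesis, had an intermediate level in Melan-A. Tyrp1 was at 105 and 109 CPM in Melan-A, 6383 and 6424 in B16F0 and 8361 and 8315 in B16F10, which is 59.8-fold higher in B16F0 and 77.8-fold higher in B16F10. Dct was at 359 and 352 CPM in Melan-A, 5688 and 5629.9 in B16F0 and 8657 and 8642 in B16F10, which is 15.9-fold higher in B16F0 and 24.3-fold higher in B16F10. The Melan-A libraries lay below the B16 libraries for all 3 enzymes, with no overlap.

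Pmel, the scaffold protein of the melanosome, was at 7.53 and 8.74 CPM in Melan-A, 4523 and 4451 in B16F0 and 5318 and 5327 in B16F10, which is 551-fold higher in B16F0 and 653-fold higher in B16F10 (adjusted p = 1.47e-45 and 1.23e-45). Gpr143, a receptor in the melanosome membrane, had 1 count in each Melan-A library and was at 0.0116 and 0.0111 CPM in Melan-A, 24.9 and 24.4 in B16F0 and 77.5 and 78.9 in B16F10. The ratio was 2177-fold higher in B16F0 (95% counting interval 602 to 17982) and 6915-fold higher in B16F10 (95% counting interval 1914 to 57104). The ion transporters of the melanosome moved the same way. Slc24a5 was at 0.533 and 0.586 CPM in Melan-A, 268 and 265 in B16F0 and 98.7 and 98.2 in B16F10, although 39.5% of its exonic bases lie under Myef2 on the other strand and the strand used in counting is not given. Slc45a2 was at 7.13 and 7.49 CPM in Melan-A, 703 and 691 in B16F0 and 682 and 679 in B16F10 and Oca2 at 0.139 and 0.221 CPM in Melan-A, 54.1 and 52.8 in B16F0 and 16.6 and 17.5 in B16F10. Mlana, which encodes the antigen Melan-A, and Gpnmb were already expressed in Melan-A cells and differed less. Mlana was 5.51-fold higher in B16F0 and 8.64-fold higher in B16F10, and Gpnmb was 2.16-fold higher in B16F0 and 3.87-fold higher in B16F10. Cd63 was called higher in both lines and stayed under 2-fold in each.

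The machinery that builds and moves melanosomes differed less and less evenly. Of 19 members 13 were higher, 6 of them 2-fold, 1 was lower and 5 were not called in both in 1 direction, with a median of 0.46. The largest were in genes of tyrosinase delivery and of late transport. Mlph, the linker between the small GTPase RAB27A and the motor myosin Va, was at 1.11 and 0.829 CPM in Melan-A, 379 and 391 in B16F0 and 594 and 591 in B16F10. Rab38, which routes tyrosinase to the melanosome, was at 2.6 and 2.57 CPM in Melan-A, 324 and 317 in B16F0 and 274 and 282 in B16F10. Rab27a was at 22.8 and 23 CPM in Melan-A, 194 and 191 in B16F0 and 199.7 and 202 in B16F10, and the motor itself, Myo5a, was 4.76-fold higher in B16F0 and 4.62-fold higher in B16F10. All 4 B16 libraries were above both Melan-A libraries for these genes. Among the BLOC subunits, which serve lysosome-related organelles in many cells, Bloc1s2 had the largest difference, being 2.04-fold higher in B16F0 and 2.18-fold higher in B16F10, and Hps6 was lower, with a log2 fold change of -1.02 (SE 0.063) in B16F0 and -0.61 (SE 0.062) in B16F10.

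**Figure D1:**
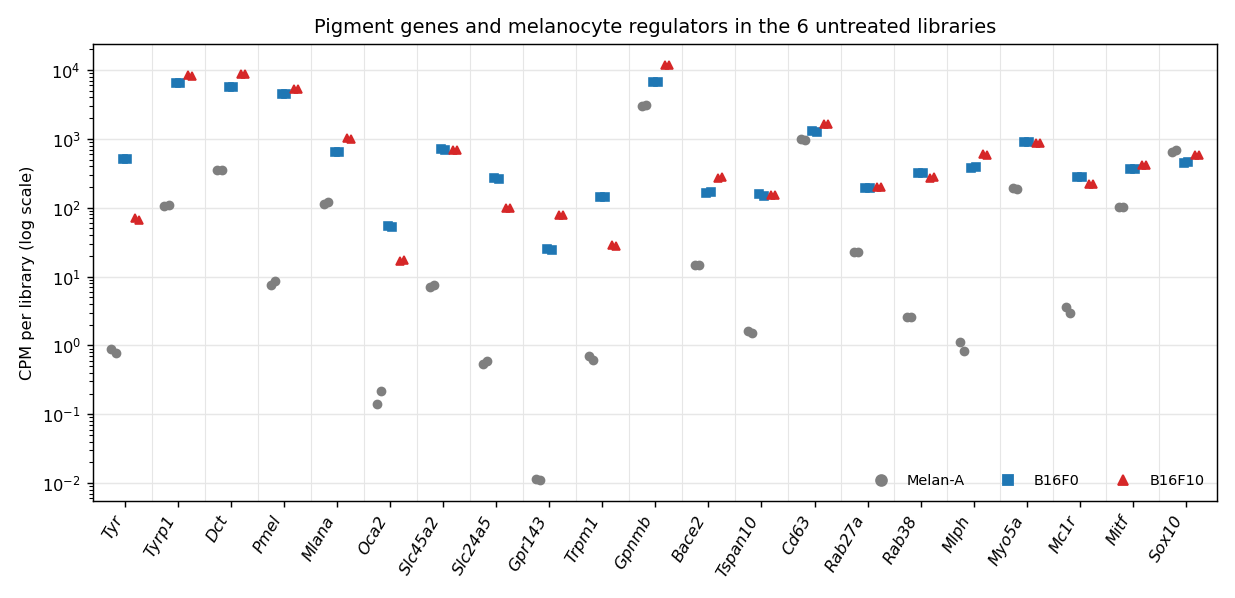
CPM per library on a log scale for the 14 melanin genes, 4 transport genes, the receptor Mc1r and the regulators Mitf and Sox10, with circles for Melan-A, squares for B16F0 and triangles for B16F10, 2 libraries each. Every B16 point lies above the Melan-A points of the same gene except for Sox10, where the Melan-A libraries are highest.

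The regulators of pigment genes did not all follow. In the list of melanocyte transcription factors and receptors 4 of 13 tested members were higher and 7 lower, with a median of -0.39. Mitf was at 103 and 101 CPM in Melan-A, 369 and 360.4 in B16F0 and 419.8 and 419 in B16F10, a log2 fold change of 1.83 (SE 0.025) in B16F0 and 2.03 (SE 0.026) in B16F10. Sox10 was at 655 and 689 CPM in Melan-A, 442 and 458 in B16F0 and 582 and 587 in B16F10, which is 1.49-fold lower in B16F0 and 1.15-fold lower in B16F10. Pax3 was close to level, with a log2 fold change of -0.30 (SE 0.025) in B16F0 and 0.05 (SE 0.025) in B16F10, and was not called in both in 1 direction. Mc1r, the receptor for melanocyte-stimulating hormone, was at 3.57 and 2.94 CPM in Melan-A, 282 and 282 in B16F0 and 224 and 218 in B16F10, which is 86.8-fold higher in B16F0 and 68-fold higher in B16F10 (17.9% of its exonic bases lie under a gene on the other strand). Zeb2, a factor of differentiated melanocytes, was 2.42-fold higher in B16F0 and 2.28-fold higher in B16F10. On the lower side stood Tfap2b at 21.4 and 22.4 CPM in Melan-A, 0.212 and 0.207 in B16F0 and 0.0165 and 0 in B16F10, Fgfr1 at 172 and 172 CPM in Melan-A, 12.3 and 11.7 in B16F0 and 2.05 and 2.27 in B16F10 and Lef1 at 20.3 and 20.6 CPM in Melan-A, 0 and 0.0888 in B16F0 and 0.215 and 0.171 in B16F10. Kit, the receptor for stem cell factor, split the lines. It had 11 and 4 counts in Melan-A, 315 and 293 in B16F0 and 0 and 0 in B16F10, above Melan-A in B16F0 and at 0 in B16F10.

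The label of a melanocyte line was checked against 10 melanocyte markers. In Melan-A 8 of the 10 were lower than in both B16 lines and 1, Sox10, was higher, and their summed level was 1355 and 1391 CPM in Melan-A against 19458 CPM or more in each B16 library. Of the 10, Sox10, Dct, Mlana, Tyrp1 and Mitf were at 101 CPM or more in Melan-A. Tyr, Pmel, Slc45a2, Mc1r and Kit were under 10 CPM there, so the markers bear out the name only in part. Markers of other cells were also counted. Of 10 keratinocyte markers 4 had enough reads to test, 2 were lower in both B16 lines and 0 higher, and the summed level ran from 2.78 CPM in a B16F0 library to 10.4 in a Melan-A library, with Krt1 and Ivl at 0 in all 6 libraries. Of 9 leukocyte markers 4 could be tested and 2 were lower, the sum ran from 10.4 to 27.1 CPM, and Cd3e had 1 count in each Melan-A library and 0 elsewhere. Of 9 endothelial markers 5 could be tested, 1 was higher and 2 were lower. The 2 lower ones fell to 1 under DESeq2, the replicate block, an adjusted p under 0.01 or without B16F0 replicate 2. The endothelial sum, mostly Eng, ran from 289 to 508 CPM, with Emcn at 2 counts or fewer.

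Schwann cell markers were well expressed in Melan-A and lower in the B16 lines. Of 10 markers 8 were lower in both B16 lines, 6 of them 2-fold, and 1 was higher, with a median of -2.28. The summed level was 932 and 952 CPM in Melan-A and between 342 and 360 CPM in the B16 libraries, and none of the 10 was at 0 in any line. Egr2, the transcription factor of myelination, was at 10.6 and 12.4 CPM in Melan-A, 0.0664 and 0.0592 in B16F0 and 0.215 and 0.436 in B16F10. Mbp, a myelin protein, was 5.73-fold lower in B16F0 and 5.02-fold lower in B16F10, and Ncmap, a small myelin protein, was 43.8-fold lower in B16F0 and 205-fold lower in B16F10. Pmp22 went the other way, at 4.21 and 5.0 CPM in Melan-A, 83.2 and 84.1 in B16F0 and 102 and 103 in B16F10. The fibroblast markers held 5 lower and 1 higher of 7 tested, with Lum at 7.17 and 7.06 CPM in Melan-A, 0.0265 and 0 in B16F0 and 0 and 0 in B16F10. The part that cells of other types might have in these levels was not tested.

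Genes of a dedifferentiated or mesenchymal state were mostly lower in the B16 lines, at 13 of 16 tested, 8 of them 2-fold, against 3 higher (median -1.85). Zeb1, which represses epithelial and pigment genes, was at 4.06 and 4.52 CPM in Melan-A, 0.0664 and 0.266 in B16F0 and 0.165 and 0.0623 in B16F10, and Snai1 was at 1.25 and 1.4 CPM in Melan-A, 0 and 0.0444 in B16F0 and 0 and 0.0156 in B16F10. Fosl1, a subunit of the AP-1 factor, was 48.7-fold lower in B16F0 and 14-fold lower in B16F10, with 57.2% of its exonic bases under Ccdc85b on the other strand. Axl, a receptor kinase of the invasive state, was at 899 and 898 CPM in Melan-A, 68.6 and 65.5 in B16F0 and 372 and 372 in B16F10. The exceptions were Ngfr, Sox9 and Tgfbi. Ngfr, a receptor of neural crest cells, was at 0.0579 and 0.0442 CPM in Melan-A, 9.15 and 8.58 in B16F0 and 108 and 108 in B16F10, and Sox9, a crest factor, was at 0.742 and 0.608 CPM in Melan-A, 4.51 and 4.26 in B16F0 and 7.32 and 7.26 in B16F10. Tgfbi, a secreted matrix protein, had 0 and 3 counts in Melan-A, 14 and 40 in B16F0 and 12 and 7 in B16F10, and its call in B16F10 was lost without Melan-A replicate 1 (log2 fold change 2.15, adjusted p = 0.083) or without B16F10 replicate 1 (2.59, adjusted p = 0.0817).

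The largest differences of all were between genes that were read in 1 kind of line and hardly at all in the other. Of the genes at least 2-fold lower, 423 had 0 counts in all 4 B16 libraries, and 25 of these were over 10 CPM in Melan-A. Of those at least 2-fold higher, 85 had 0 counts in both Melan-A libraries, and 9 of these were over 10 CPM in each B16 line. The 15 genes ranked highest and the 15 ranked lowest by the smaller of their 2 log2 fold changes, among those with at least 10 CPM on the higher side, are nearly all of this kind. The rank uses fitted values, which depend on the prior count where a line is at 0. BC043934, for example, is at least 689-fold higher in B16F0 and at least 813-fold higher in B16F10 at the floor of 3 counts, less than the ratios of Gpr143 given above, which ranks below it.

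Among the 15 highest was Galk1, galactokinase, the enzyme that brings galactose into metabolism. Galk1 (ENSMUSG00000020766.4 on chromosome 11, 116008457 to 116012719, mm10) had 0 and 0 counts in Melan-A, 15433 and 13223 in B16F0 and 9723 and 10168 in B16F10, which is at least 11811-fold higher in B16F0 and at least 9395-fold higher in B16F10 (adjusted p = 3.24e-37 and 1.36e-36). Syt4, a synaptotagmin of secretory vesicles, had the highest level in CPM among them, at 0.0927 and 0.0995 CPM in Melan-A, 717 and 708 in B16F0 and 623 and 624 in B16F10, and 14.5% of its exonic bases lie under a gene on the other strand. Fkbp6, a chaperone of germ cells, had 0 and 1 counts in Melan-A, 9158 and 8292 in B16F0 and 12842 and 13533 in B16F10. Marveld1, Gja3 (a connexin of the lens), Tysnd1 (a peroxisomal protease), Zfp518b, Gpm6a (a neuronal membrane protein), Brs3 (a bombesin receptor), Tmem136 and BC043934 were at 0 in both Melan-A libraries, and in the B16 libraries their levels ran from 11.2 CPM for BC043934 to 56.8 CPM for Marveld1. Il3ra, Cpne4, 2210016F16Rik and Scarf2 had between 0 and 5 counts in each Melan-A library.

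Among the 15 lowest was H19, an imprinted long noncoding RNA of fetal tissue, at 4526 and 4395 CPM in Melan-A, 0.0265 and 0 in B16F0 and 0 and 0 in B16F10, or 2 counts in a single B16 library. Tnnt3, a troponin of fast muscle, had 45828 and 47159 counts in Melan-A, 0 and 0 in B16F0 and 0 and 0 in B16F10 and was at least 25068-fold lower in B16F0 and at least 21876-fold lower in B16F10. Cytl1, a secreted cytokine-like protein, was at least 12052-fold lower in B16F0 and at least 10517-fold lower in B16F10. The others at 0 in every B16 library were Ly6e, a membrane protein induced by interferon, Flrt2 and Adgrl3, which bind each other as adhesion proteins, Cacna1h, a T-type calcium channel, Grifin, a lens galectin, Vwc2, an inhibitor of bone morphogenetic proteins, Zfpm2, a cofactor of GATA factors, Gli2, an effector of Hedgehog signaling, Cdkn2a and Cdkn2b. Pxdn, a peroxidase of basement membranes, had 2 counts in 1 B16F10 library and 0 in the others, and Peg3 had 1 count in 1 library of each B16 line. For all 15 the 4 B16 libraries lay together at or near 0.

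**Figure D2:**
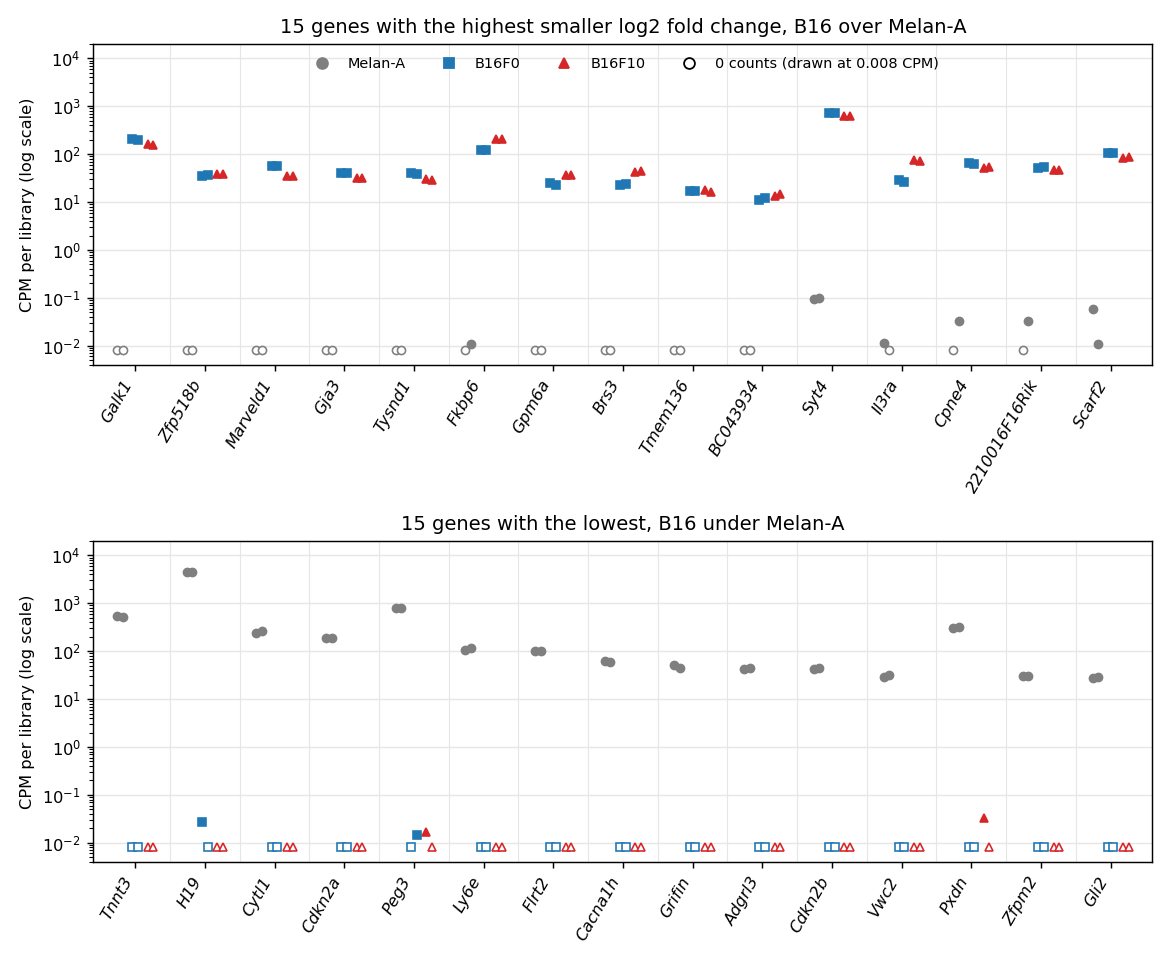
CPM per library on a log scale for the 15 genes with the highest and the 15 with the lowest smaller log2 fold change, 2 libraries per line, with open markers at 0.008 CPM for libraries with 0 counts. In the upper panel the Melan-A points lie at or below 0.0995 CPM and in the lower panel the B16 points lie at or below 0.0330 CPM, with no overlap of lines in either.

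Cdkn2a and Cdkn2b lie next to each other and encode the inhibitors p16INK4A, p15INK4B and the p53 activator p19ARF. Cdkn2a (ENSMUSG00000044303.6 on chromosome 4, 89274471 to 89294653, mm10) had 16108 and 17002 counts in Melan-A, 0 and 0 in B16F0 and 0 and 0 in B16F10, which is at least 8926-fold lower in B16F0 and at least 7789-fold lower in B16F10 (adjusted p = 7.17e-35 and 1.67e-34). Cdkn2b (ENSMUSG00000073802.5 on chromosome 4, 89306299 to 89311039) had 3617 and 3972 counts in Melan-A, 0 and 0 in B16F0 and 0 and 0 in B16F10, which is at least 2046-fold lower in B16F0 and at least 1785-fold lower in B16F10. The noncoding genes on either side, Gm12606 at 89235699 to 89273403 and Gm12609 at 89381957 to 89399880, were also at 0 in all 4 B16 libraries, with 54 and 38 counts and 25 and 60 counts in Melan-A. Beyond them Gm12610 had 89 and 100 counts in Melan-A, 0 in 3 B16 libraries and 4 in the last, and Dmrta1 had 60 and 52 counts in Melan-A and at most 1 in a B16 library. On the other side Mtap, a methionine salvage enzyme, at 89137122 to 89181081, was expressed in every library, at 187 and 187 CPM in Melan-A, 305 and 311 in B16F0 and 524 and 515 in B16F10. The run of 0 counts thus reached from Gm12606 to Gm12609. These are RNA levels, and whether the DNA is present was not measured.

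**Figure D3:**
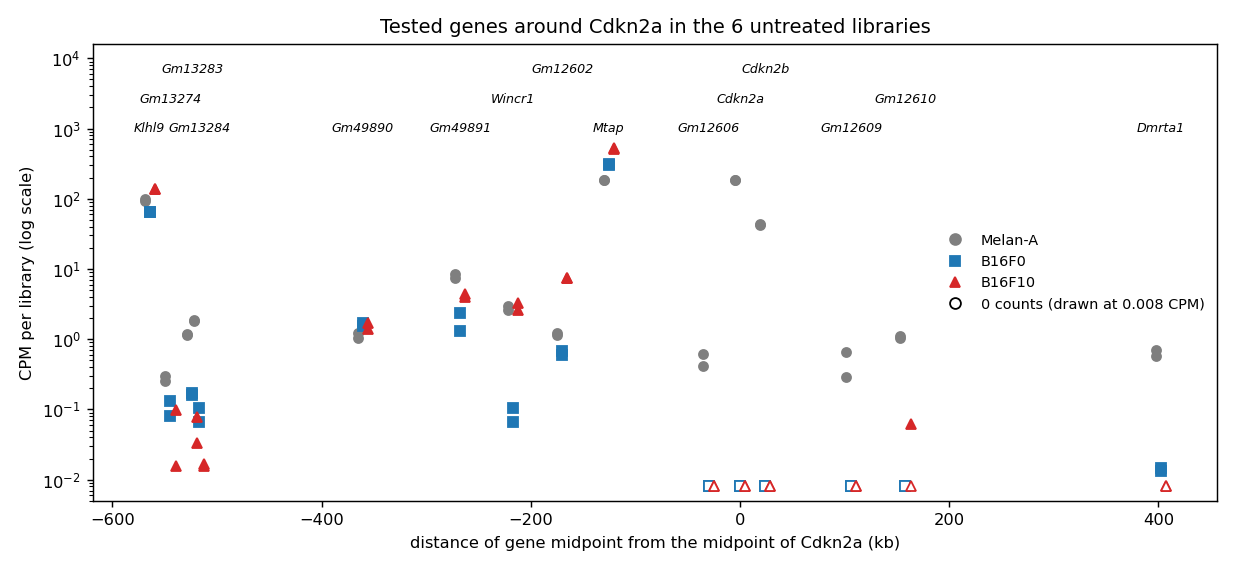
CPM per library on a log scale for the tested genes around Cdkn2a, by the distance of each gene's midpoint from that of Cdkn2a in kb, with open markers at 0.008 CPM for 0 counts. The B16 libraries are at 0 for Gm12606, Cdkn2a, Cdkn2b and Gm12609, while at Mtap they lie above Melan-A.

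The list of cyclin-dependent kinase inhibitors, p53 and RB genes, which holds Cdkn2a, Cdkn2b and Mtap, was mixed. In it 15 of 24 tested members were higher and 7 lower (median 0.67). Several targets of p53 were among the higher ones. Ccng1, a cyclin induced by p53, was at 51.8 and 50.6 CPM in Melan-A, 358 and 359 in B16F0 and 509.6 and 509 in B16F10. Trp53inp1 was 5.36-fold higher in B16F0 and 7.53-fold higher in B16F10, Zmat3 was 3.4-fold higher in B16F0 and 4.11-fold higher in B16F10 and Cdkn1a, which encodes p21, was 3.72-fold higher in B16F0 and 2.57-fold higher in B16F10. Trp53 itself had a log2 fold change of -0.39 (SE 0.029) in B16F0 and 0.18 (SE 0.029) in B16F10 and was not called in 1 direction. Cdkn1c, an imprinted inhibitor, was lower, at 12.1 and 12.6 CPM in Melan-A, 1.39 and 1.54 in B16F0 and 0 and 0 in B16F10, with 30.7% of its exonic bases under a gene on the other strand.

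Proliferation genes differed little in size. Of 35 tested, 10 were higher and 16 lower, and 3 and 0 of these were 2-fold (median -0.14). Cdk2 was at 54.7 and 53.3 CPM in Melan-A, 450.3 and 450.0 in B16F0 and 258 and 258 in B16F10. Ccnd2, a D-type cyclin, was 3.74-fold higher in B16F0 and 3.58-fold higher in B16F10, and Rrm2, which makes deoxynucleotides, was 2.89-fold higher in B16F0 and 3.47-fold higher in B16F10. Of the lower genes, Top2a, a topoisomerase, had a log2 fold change of -0.84 in B16F0 and -1.07 in B16F10, and the kinase gene Plk1 one of -0.59 in B16F0 and -0.65 in B16F10. Myc was 1.23-fold higher in B16F0 and 1.68-fold higher in B16F10.

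Imprinted genes, which are expressed from a single parental copy and marked by DNA methylation, were mostly lower. Of 22 tested, 16 were lower, 14 of them 2-fold, and 3 were higher, with a median of -5.62 (-3.96 with genes at 0 set to their bounds). Peg3, a zinc finger gene on chromosome 7, had 70147 and 71710 counts in Melan-A, 0 and 1 in B16F0 and 1 and 0 in B16F10, and its neighbor Usp29 had 1071 and 1168 counts in Melan-A, 0 and 0 in B16F0 and 0 and 0 in B16F10. Rtl1, Dlk1 and Mirg, from the imprinted cluster of chromosome 12, were all at 0 in the B16 libraries, Rtl1 with 1420 and 1425 counts in Melan-A, 0 and 0 in B16F0 and 0 and 0 in B16F10. Grb10, which damps insulin signaling, was at 70.0 and 70.5 CPM in Melan-A, 0.0133 and 0 in B16F0 and 0.0165 and 0 in B16F10, and Mest at 208 and 214 CPM in Melan-A, 13.4 and 13.9 in B16F0 and 3.91 and 3.74 in B16F10. Plagl1, a zinc finger regulator, was 2.27-fold higher in B16F0 and 2.48-fold higher in B16F10, Ppp1r9a was 53.2-fold higher in B16F0 and 23.3-fold higher in B16F10 and Sgce was 1.15-fold higher in B16F0 and 1.5-fold higher in B16F10. Allele-specific expression was not measured.

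Interferon and JAK-STAT genes formed the list with the largest share of lower members. Of 34 tested, 28 were lower in both B16 lines, 24 of them 2-fold, and 2 were higher, with a median of -2.24. With SX-682, 29 were lower and 2 higher. Isg15, a ubiquitin-like modifier, was at 183 and 179 CPM in Melan-A, 6.44 and 5.8 in B16F0 and 3.6 and 3.24 in B16F10. Oasl2, of the oligoadenylate synthetase family, was at 67.6 and 66.3 CPM in Melan-A, 0.398 and 0.621 in B16F0 and 0.281 and 0.483 in B16F10. Usp18, which removes ISG15 from proteins, was at 100.4 and 104 CPM in Melan-A, 2.14 and 2.19 in B16F0 and 1.68 and 2.32 in B16F10. Ifi44 had 2813 and 2935 counts in Melan-A, 1 and 0 in B16F0 and 0 and 0 in B16F10 and was the most extreme member. Transcription factors of the pathway were lower too. Irf9 was 7.94-fold lower in B16F0 and 10.3-fold lower in B16F10 and Irf7 was 16.8-fold lower in B16F0 and 21.8-fold lower in B16F10. The 2 Melan-A libraries lay above all 4 B16 libraries for each of these 6 genes. The receptors varied. Ifngr2, a chain of the interferon gamma receptor, was 2.06-fold higher in B16F0 and 2.07-fold higher in B16F10, Jak1 had a log2 fold change of 0.57 in B16F0 and 1.39 in B16F10, Ifngr1 was 2.03-fold lower in B16F0 and 2.11-fold lower in B16F10, and Ifnar1, with -0.24 in B16F0 and 0.09 in B16F10, was not called in both in 1 direction.

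Class I antigen presentation did not follow the interferon genes. Of 19 members 9 were higher and 5 lower (median 0.32). H2-K1, a class I heavy chain that shows peptides to CD8 T cells, was at 0.232 and 0.343 CPM in Melan-A, 95.4 and 94.4 in B16F0 and 173 and 174 in B16F10, with 20 and 31 counts in Melan-A, which is 327-fold higher in B16F0 and 598-fold higher in B16F10 (adjusted p = 8.40e-36 and 1.94e-37). H2-D1 was at 48 and 48.3 CPM in Melan-A, 263 and 256 in B16F0 and 378 and 394 in B16F10 and H2-T23 at 0.0116 and 0.0221 CPM in Melan-A, 4.21 and 2.91 in B16F0 and 5.15 and 4.08 in B16F10. The heavy chain genes are near-identical in places, so the share of reads given to each is uncertain. B2m, the light chain, was at 396 and 408 CPM in Melan-A, 282 and 286 in B16F0 and 628 and 623 in B16F10, below Melan-A in B16F0 and above it in B16F10. The peptide loading genes went both ways. Tap1, a subunit of the peptide pump, was 1.56-fold higher in B16F0 and 2.52-fold higher in B16F10. Tapbp, which encodes tapasin, was 4.94-fold lower in B16F0 and 1.99-fold lower in B16F10 (24.9% of its exonic bases lie under a gene on the other strand), Erap1, which trims peptides, was 7.83-fold lower in B16F0 and 2.43-fold lower in B16F10 (11.5% under Cast on the other strand), and Psme2 had a log2 fold change of -1.20 in B16F0 and -0.88 in B16F10.

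Ligands of immune checkpoints and of killer cells were split, 6 higher and 6 lower of 16 tested. Lgals3, galectin-3, was at 175 and 174 CPM in Melan-A, 386 and 378 in B16F0 and 3014 and 2991 in B16F10, and Raet1d, a ligand of the receptor NKG2D, was at 0.0348 and 0.0553 CPM in Melan-A, 21.3 and 22.4 in B16F0 and 5.86 and 6.75 in B16F10 (25.2% of its exonic bases are shared with Raet1e on the same strand). Lgals9, galectin-9, was lower, with a log2 fold change of -1.08 in B16F0 and -1.53 in B16F10. Tnfrsf14, the partner of the inhibitory receptor BTLA, was lower too (-1.66 in B16F0 and -1.44 in B16F10). Cd274, which encodes PD-L1, was under 2-fold higher in both lines.

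**Figure D4:**
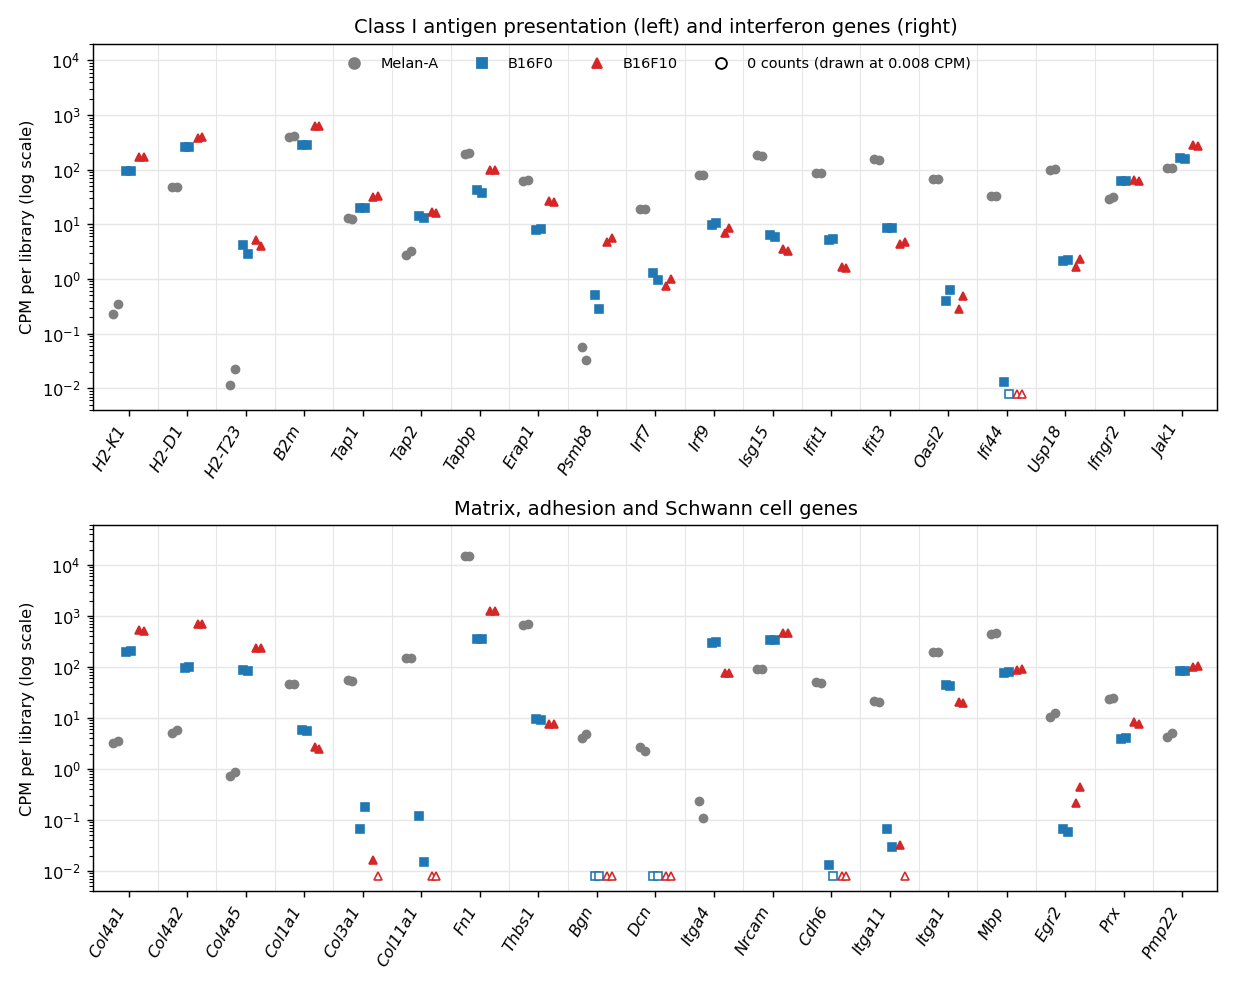
CPM per library on a log scale for class I and interferon genes (upper panel) and for matrix, adhesion and Schwann cell genes (lower panel), 2 libraries per line, with open markers at 0.008 CPM for 0 counts. The class I heavy chains and type IV collagens lie higher in the B16 libraries, and most interferon genes, fibrillar collagens and myelin genes lie lower.

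The RNA of the chemokine receptors that SX-682 blocks was read at low levels, and these counts do not measure the receptor protein. Cxcr2 had 79 and 76 counts in Melan-A, 1 and 0 in B16F0 and 0 and 0 in B16F10, which is 125-fold lower in B16F0 (95% counting interval 22.2 to 4983) and at least 36.5-fold lower in B16F10. Cxcr1 had 21 and 13 counts in Melan-A, 0 and 0 in B16F0 and 0 and 0 in B16F10, which is at least 9.17-fold lower in B16F0 and at least 8.0-fold lower in B16F10 (adjusted p = 2.07e-04 and 3.51e-04). Their ligand Cxcl1 went the other way, at 0.637 and 0.675 CPM in Melan-A, 12.6 and 12.6 in B16F0 and 79.3 and 81.1 in B16F10. Its log2 fold change was 4.26 in B16F0 and 6.93 in B16F10. Of the 10 tested chemokines and receptors of this class 1 was higher and 5 were lower, among them Cxcl2 at 4.59 and 4.07 CPM in Melan-A, 0.385 and 0.666 in B16F0 and 0.661 and 0.265 in B16F10. Ackr3, a scavenger receptor, was 3.81-fold lower in B16F0 and 1.94-fold lower in B16F10. Cxcr4 and Cxcl12 had at most 2 counts in any library.

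Other cytokines and growth factors were lower in 17 of 28 and higher in 2 (median -1.51). Il11, of the interleukin-6 family, was at 41.7 and 41.2 CPM in Melan-A, 0.239 and 0.192 in B16F0 and 0.116 and 0.249 in B16F10. Nrg1, a growth factor of Schwann cells and melanocytes, had 1290 and 1379 counts in Melan-A, 0 and 0 in B16F0 and 3 and 2 in B16F10, and Pdgfc was 219-fold lower in B16F0 and 161-fold lower in B16F10. Mif was higher, with a log2 fold change of 1.28 in B16F0 and 0.65 in B16F10. Vegfb had a log2 fold change of 0.10 (SE 0.039) in B16F0 and 1.01 (SE 0.038) in B16F10, and its call in B16F0 was lost under DESeq2 (0.08, adjusted p = 0.126), RLE scaling (0.08, adjusted p = 0.0609), the filter of at least 10 counts in every library (0.07, adjusted p = 0.106), without Melan-A replicate 1 (0.03, adjusted p = 0.495) or without B16F0 replicate 1 (0.11, adjusted p = 0.066). The call of Vegfb in B16F0 was also lost at an adjusted p threshold of 0.01. Vegfa was lower, with a log2 fold change of -0.22 (SE 0.039) in B16F0 and -1.40 (SE 0.043) in B16F10. Ccl2, a monocyte chemokine, was not shared, at 0.556 and 0.387 CPM in Melan-A, 0.0265 and 0.0444 in B16F0 and 393 and 396 in B16F10.

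Extracellular matrix genes were lower in 31 of 42 tested, 26 of them 2-fold, and higher in 8, with a median of -3.24. Fn1, fibronectin, was at 14809.8 and 14975 CPM in Melan-A, 354 and 353 in B16F0 and 1279 and 1271 in B16F10. The fibrillar collagen Col11a1 was at 151 and 152 CPM in Melan-A, 0.119 and 0.0148 in B16F0 and 0 and 0 in B16F10, and the small proteoglycan gene Bgn had 345 and 432 counts in Melan-A, 0 and 0 in B16F0 and 0 and 0 in B16F10. Genes of type IV collagen, the network of basement membranes, were among the 8 higher members, 5 of which were 2-fold. Col4a1 was at 3.21 and 3.56 CPM in Melan-A, 200.1 and 209.8 in B16F0 and 522 and 520.3 in B16F10, which is 60.4-fold higher in B16F0 and 154-fold higher in B16F10. Col4a2, transcribed from the same promoter region in the other direction, was at 5.02 and 5.71 CPM in Melan-A, 96.5 and 98.6 in B16F0 and 707 and 701 in B16F10, and Col4a5 was at 0.73 and 0.863 CPM in Melan-A, 86.6 and 84.5 in B16F0 and 235 and 238 in B16F10. No library of Melan-A overlapped a B16 library for these 3 genes.

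Receptors of adhesion were lower in 19 of 33 and higher in 5 (median -0.78). Itga4, a subunit of the receptor for VCAM1, was at 0.232 and 0.111 CPM in Melan-A, 298 and 307 in B16F0 and 77.5 and 76.5 in B16F10, which is 1763-fold higher in B16F0 and 449-fold higher in B16F10, and its ligand Vcam1 was at 5.34 and 5.4 CPM in Melan-A, 0.0664 and 0.0444 in B16F0 and 0.198 and 0.0156 in B16F10. Cdh6, a cadherin of the neural crest, had 4340 and 4413 counts in Melan-A, 1 and 0 in B16F0 and 0 and 0 in B16F10, and Itga11, a collagen receptor, was at 21.9 and 21 CPM in Melan-A, 0.0664 and 0.0296 in B16F0 and 0.033 and 0 in B16F10. Nrcam, a neuronal adhesion molecule, was higher, with a log2 fold change of 1.89 in B16F0 and 2.35 in B16F10. Proteases and their inhibitors were balanced, 11 higher and 9 lower of 28 (median 0.10). Timp3, a matrix-bound inhibitor, was at 0.0811 and 0.265 CPM in Melan-A, 146 and 139.9 in B16F0 and 108 and 107 in B16F10 (21.3% of its exonic bases lie under Syn3 on the other strand). Adam12 was 3.42-fold higher in B16F0 and 4.75-fold higher in B16F10, and Mmp11 was 3.57-fold higher in B16F0 and 2.48-fold higher in B16F10. Adamts5, an aggrecanase, was 36.8-fold lower in B16F0 and 25.4-fold lower in B16F10, and Mmp17 was 17.5-fold lower in B16F0 and 41-fold lower in B16F10.

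Growth factor receptors were lower in 15 of 27 and higher in 5 (median -1.52). Fgfr2 was at 94 and 93.3 CPM in Melan-A, 0 and 0 in B16F0 and 0.413 and 0.499 in B16F10 and Ret, the receptor of the GDNF family, at 20.6 and 22.1 CPM in Melan-A, 0.0133 and 0.0444 in B16F0 and 0.0661 and 0 in B16F10. Flt1 was 248-fold lower in B16F0 and 96.5-fold lower in B16F10. Ntrk3 was higher, at 0.0348 and 0.0332 CPM in Melan-A, 5.23 and 4.75 in B16F0 and 3.44 and 2.98 in B16F10, and Met, the receptor for hepatocyte growth factor, was 1.72-fold higher in B16F0 and 1.67-fold higher in B16F10. Below the receptors lies the RAS-MAPK pathway. Of 31 genes 17 were lower, 11 of them 2-fold, and 8 higher with 0 at 2-fold (median -0.59). Egr1, an immediate early factor, was at 243 and 256 CPM in Melan-A, 3.6 and 3.56 in B16F0 and 16.1 and 17.5 in B16F10. Dusp5, a phosphatase of ERK, was 40.8-fold lower in B16F0 and 23.4-fold lower in B16F10 (22.1% of its exonic bases lie under a gene on the other strand). Etv5 and Spry4, a factor and an inhibitor induced by ERK, were lower as well, Etv5 being 21-fold lower in B16F0 and 4.31-fold lower in B16F10 and Spry4 10.7-fold lower in B16F0 and 3.67-fold lower in B16F10. The kinase genes Braf and Map2k1 were higher and under 2-fold, Braf with a log2 fold change of 0.59 in B16F0 and 0.47 in B16F10.

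In the Wnt list 24 of 37 members were lower, 18 of them 2-fold, and 8 were higher (median -1.42). The feedback targets of beta-catenin disagreed in direction. Axin2 was at 0 and 0.133 CPM in Melan-A, 18.2 and 19.8 in B16F0 and 8.03 and 9.58 in B16F10, while Nkd1 was at 30.4 and 31.5 CPM in Melan-A, 0.0664 and 0.0592 in B16F0 and 0 and 0.0312 in B16F10 and Lef1, given above, was lower. The receptor Fzd8 had 3120 and 3545 counts in Melan-A, 0 and 0 in B16F0 and 39 and 29 in B16F10, and Dkk3, a secreted protein of the Dickkopf family, was at 0.197 and 0.199 CPM in Melan-A, 54.9 and 55.4 in B16F0 and 41.8 and 40.9 in B16F10. Ctnnb1, beta-catenin itself, differed little, with log2 fold changes of 0.07 in B16F0 and 0.09 in B16F10. In the Notch list 2 were higher and 8 lower of 18 (median -0.49). Only 1 was higher under DESeq2, at an adjusted p under 0.01, without Melan-A replicate 1 or without B16F10 replicate 1, where Rfng lost its call. Notch1 was at 3.07 and 2.96 CPM in Melan-A, 36.5 and 37.6 in B16F0 and 44.9 and 41.9 in B16F10, and Notch3 was 34.5-fold lower in B16F0 and 7.14-fold lower in B16F10. The target Hes1 was 6.13-fold lower in B16F0 and 2.52-fold lower in B16F10, and Dtx1, another regulator, was at 8.19 and 9.63 CPM in Melan-A, 0.0398 and 0.0444 in B16F0 and 0 and 0.0156 in B16F10. In the TGF-beta and BMP list 20 of 32 were lower and 2 higher (median -0.68). Tgfb2, a ligand, was at 0.881 and 0.398 CPM in Melan-A, 17.3 and 15.6 in B16F0 and 40.4 and 39.2 in B16F10 and Fstl1, a follistatin-like protein, at 0.394 and 0.243 CPM in Melan-A, 48.3 and 47.6 in B16F0 and 5.52 and 5.24 in B16F10, while Id1, a target of BMP signals, was 4.85-fold lower in B16F0 and 6.0-fold lower in B16F10 and Ltbp1, which stores the ligand in the matrix, was 16.7-fold lower in B16F0 and 13-fold lower in B16F10.

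Of the factors linked with stem cells, Tfcp2l1, a factor of naive pluripotency, was at 8.06 and 9.4 CPM in Melan-A, 0.0796 and 0.104 in B16F0 and 0 and 0.0156 in B16F10, or 7 or fewer counts in each B16 library. Its relative Tfcp2 was 1.82-fold higher in B16F0 and 1.86-fold higher in B16F10. Klf4 was at 42.2 and 43.1 CPM in Melan-A, 6.77 and 6.66 in B16F0 and 2.05 and 2.15 in B16F10 and Klf2 was 8.72-fold lower in B16F0 and 18-fold lower in B16F10. Foxd3, a neural crest factor, had 264 and 286 counts in Melan-A, 0 and 0 in B16F0 and 0 and 0 in B16F10. The list held 5 higher and 5 lower of 13 tested, and Nanog, Pou5f1 and Esrrb had too few reads to test. Hmga2 was not shared, with log2 fold changes of -0.48 (SE 0.035) in B16F0 and 0.22 (SE 0.034) in B16F10, and its relative Hmga1 was 2.05-fold higher in B16F0 and 3.73-fold higher in B16F10, the 1 higher member of the 6 tested in the oncofetal list, in which 2 were lower.

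Glycolytic genes were higher in 13 of 24 and lower in 4 (median 0.75). Slc16a3, the lactate exporter MCT4, was at 0.568 and 0.354 CPM in Melan-A, 106 and 108 in B16F0 and 7.22 and 6.98 in B16F10. Slc2a3, the glucose transporter GLUT3, was at 0.823 and 0.719 CPM in Melan-A, 28.4 and 27 in B16F0 and 17.2 and 19.4 in B16F10, while Slc2a1, the glucose transporter GLUT1, was 2.16-fold lower in B16F0 and 1.63-fold lower in B16F10. NRF2 targets were higher in 11 of 22 and lower in 5 (median 0.55). Gstm1 was 4.94-fold higher in B16F0 and 8.69-fold higher in B16F10 and G6pdx, the entry to the pentose phosphate pathway, was 2.77-fold higher in B16F0 and 3.62-fold higher in B16F10 (13.6% of its exonic bases lie under Ikbkg on the other strand), while Hmox1, heme oxygenase, was 2.71-fold lower in B16F0 and 5.08-fold lower in B16F10. Among 20 hypoxia genes 6 were higher and 9 lower. Adm, adrenomedullin, was at 0.637 and 0.431 CPM in Melan-A, 4.59 and 4.45 in B16F0 and 73.4 and 74.4 in B16F10 and Egln3, an oxygen sensor, at 0.324 and 0.232 CPM in Melan-A, 27.5 and 26.2 in B16F0 and 10.3 and 10.3 in B16F10, and Ndrg1 was 2.11-fold lower in B16F0 and 2.5-fold lower in B16F10. Of 13 genes of mitochondrial DNA 3 were higher and 0 lower, with 0 at 2-fold.

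The remaining lists were small or mixed. Of 10 S100 genes 4 were higher and 5 lower, with S100b, a marker of melanoma and Schwann cells, at 243 and 242 CPM in Melan-A, 118 and 118 in B16F0 and 40.3 and 39.9 in B16F10 and S100a1 6.9-fold higher in B16F0 and 4.93-fold higher in B16F10. Of 11 metastasis genes 4 were higher and 4 lower. Gdf15, a stress cytokine, was at 0.0811 and 0.0995 CPM in Melan-A, 2.28 and 2.19 in B16F0 and 21.6 and 19.9 in B16F10, and Nedd9, an adaptor of cell migration, was at 32.1 and 32.1 CPM in Melan-A, 0.0796 and 0.207 in B16F0 and 1.5 and 1.25 in B16F10. Of 13 tested germline genes 1 was higher and 5 were lower, among them Magea3 with 318 and 280 counts in Melan-A, 0 and 0 in B16F0 and 0 and 0 in B16F10. Of 9 sex chromosome genes listed, 2 were in the table and 0 had enough reads to test.

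**Figure D5:**
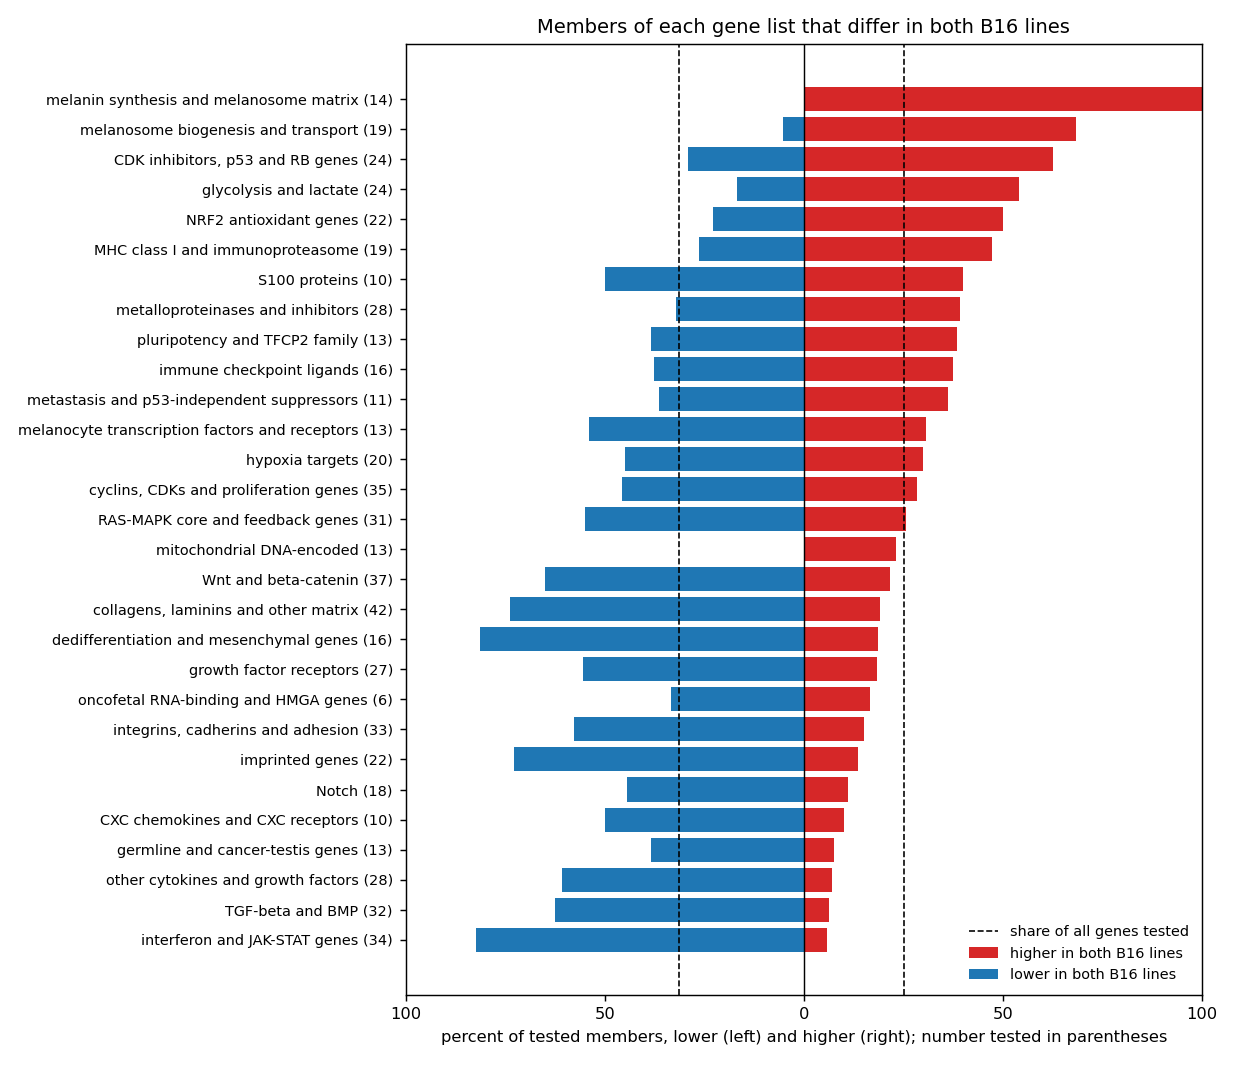
Percent of the tested members of each gene list that were called higher (right) or lower (left) in both B16 lines, with the number tested in parentheses and dashed lines at the 25.2% and 31.3% of all genes tested. The melanin list is the only one with every member higher, and the interferon list has the largest share lower.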

How the data were processed

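Total RNA of cultured Melan-A, B16F0 and B16F10 cells was sequenced on Illumina libraries, 2 per line and treatment. The values are raw read counts per gene deposited by the authors for 34513 genes. The submitters' processing notes name cutadapt, STAR, DESeq2 and the build mm10, while the counter, the annotation release, the versions and the use of strand are not given in the sources used here. Gene symbols and positions came with the deposited counts, and exons came from GENCODE M21 (34422 identifiers matched).

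The 6 untreated libraries were fitted together in edgeR 4.0.16 (R 4.3.3, limma 3.58.1) with TMM scaling, filterByExpr and the quasi-likelihood test, and p-values were adjusted over the 17467 genes tested. A gene differed in both B16 lines when both adjusted p were under 0.05 with the same sign. CPM are counts per 1000000 reads of the TMM-scaled library size. In a single library 3 counts correspond to 0.0332 to 0.0495 CPM. The bounds use 3 counts over the 2 libraries of a line together, which is a lower level in CPM. Floors and intervals (95%, exact) cover counting error only. The fit had 3 residual degrees of freedom and 24.8 prior ones, and the residual spread is between libraries not stated to be separate cultures.

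The comparison and the gene lists were chosen with earlier results of these data known. The genes named were, by rule, the 15 highest and 15 lowest by the smaller of the 2 log2 fold changes with at least 10 CPM on the higher side and no overlap of libraries, up to 3 per list and direction by the same measure among called members with at least 1 CPM, members with a defining role that did not pass, and genes central to the study, some of which are not reported here. Others, such as Tyrp1, Dct, Mlana, Kit, Isg15, Fn1, Axl, Mbp, Mtap, Tgfbi and Etv5, were named after their values were seen. Some genes of the lists were not analysed here. Replicate numbers did not pair the libraries (correlations of same-numbered deviations 0.0137, -0.0539 and -0.00478). The steps were tested on simulated counts. Promoter CG content was described with no test, for the 68.0% of genes tested that had a promoter in the table. The measure was CG pairs found over those predicted from the C and G content. This ratio was over 0.6 in 62.7% of promoters of all genes tested. It was over 0.6 in 52.9% for genes at least 2-fold higher in both B16 lines and 36.8% for those at least 2-fold lower. Alternatives were RLE and upper-quartile scaling, DESeq2 1.42.0, other expression filters, prior count and p threshold, all 12 libraries in one fit, a fit per B16 line, the replicate block and leaving out each library.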

Additional observations from a re-analysis of the deposited data

Results flagged for a closer look

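The effect against Melan-A differed between B16F0 and B16F10 by more than 2-fold (edgeR's glmTreat test with Benjamini-Hochberg adjustment over all genes, largest adjusted p = 0.0338) for 45 of the 189 tested genes named here, 26 higher and 19 lower in B16F10. Values are log2 differences, B16F10 minus B16F0. Since a difference in effect between the lines equals their difference in level, these values do not involve Melan-A.

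Of the pigment genes that passed this test, some were lower in B16F10, with -2.92 for Tyr, -1.65 for Oca2, -1.44 for Slc24a5 and -2.34 for Trpm1. Gpr143 was on the other side, at 1.67. The enzyme genes Tyrp1 and Dct and the transporter gene Slc45a2 did not pass it. Of the receptors and regulators of the lineage, the differences were -11.30 for Kit, -2.47 for Fgfr1 and -4.45 for Tfap2b, where Kit had 0 counts in both B16F10 libraries. The genes of the dedifferentiation list that passed were higher in B16F10, at 3.60 for Ngfr and 2.47 for Axl. The Schwann cell marker Egr2 was higher as well, at 2.35. S100b was lower, at -1.55.

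Among secreted factors the values were 13.39 for Ccl2, 4.03 for Adm, 3.21 for Gdf15, 2.67 for Cxcl1 and 1.28 for Tgfb2 on the higher side and -3.16 for Fstl1 and -1.18 for Vegfa on the lower. The immune genes that passed were all higher in B16F10 except Raet1d. The values were 2.97 for Lgals3, 1.69 for Erap1, 1.31 for Tapbp, 1.14 for B2m, 1.39 for Il3ra and -1.79 for Raet1d. In the matrix and adhesion lists the values were 1.35 for Col4a1, 2.85 for Col4a2, 1.47 for Col4a5 and 1.85 for Fn1, against -1.97 for Itga4 and -5.41 for Col11a1. Col11a1 had 0 counts in both B16F10 libraries and 9 and 1 in B16F0. Nedd9, of the metastasis list, was at 3.28.

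Of the genes of growth factor, Notch and Wnt signaling, apart from Kit, Fgfr1 and Axl given above, these were higher in B16F10, with 2.23 for Egr1, 2.28 for Etv5, 1.54 for Spry4, 2.27 for Notch3, 1.28 for Hes1, 8.09 for Fgfr2 and 8.34 for Fzd8, where Fgfr2 and Fzd8 had 0 counts in both B16F0 libraries. The remaining genes were lower in B16F10, with -9.76 for Cdkn1c, -1.83 for Mest, -1.19 for Ppp1r9a, -1.68 for Klf4, -3.92 for Slc16a3 and -1.38 for Egln3, where Cdkn1c had 0 counts in both B16F10 libraries. Fitted values against a line at 0 depend on the prior count and are no bounds. With 2 libraries a group, no group was large enough to look for a library apart from the others.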

How the results depend on the processing

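Of 142 recomputed counts of genes that differed in both lines or between the B16 lines, 138 stayed within 1.5 times the reported count. The 4 that moved further all came from requiring at least 10 counts in every library, which left 12854 genes and by construction drops those at or near 0 on 1 side: 842 genes were then at least 2-fold higher and 1023 at least 2-fold lower without treatment, and 757 and 1039 with SX-682, against 1312 and 2780. A fit blocked on the replicate number called 4311 genes higher and 5302 lower, 1345 and 2765 of them 2-fold, and the pairing of numbers changed no named call. Leaving out 1 library gave 4236 to 4327 genes higher, 5104 to 5286 lower, 1322 to 1380 at least 2-fold higher and 2690 to 2882 at least 2-fold lower. In the SX-682 libraries the same ranges were 3978 to 4383, 4752 to 5351, 1218 to 1315 and 2455 to 2883, and between the B16 lines 10301 to 11545. Of 1080 recomputed counts of list members called higher or lower, 1045 stayed within 1.5 times and 35 did not, 22 of them under the filter of at least 10 counts in every library. There the lower members fell to 8 in the dedifferentiation list, 4 among melanocyte factors, 2 among CXC genes, 16 in the matrix list, 15 in the Wnt list, 9 among other cytokines, 5 among imprinted genes and 0 among germline genes. The other 13 moves were of counts of 2 that became 1, among cytokines, Notch genes and endothelial markers. DESeq2 gave 4020 higher and 4984 lower. The share of calls on the higher side ran from 43.3% to 48.3%, against 44.6%. No called gene named here changed direction under any of these. Of 7276 recomputed gene values 23 lost their call, for Rfng, Vegfb, Ctnnb1, Ifnar1 or Tgfbi, and 7 gained one, all for Pax3 in B16F10.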
